A study of Homo sapiens with 6 samples.

Results

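RN7SK, RPPH1 and RMRP are the genes of 3 human noncoding RNAs, namely 7SK RNA, the RNA of RNase P and the RNA of RNase MRP. Their contacts with TRMT10A were taken from the cluster tables of a CLIP experiment, in which protein is crosslinked to RNA in cells and the bound fragments are sequenced. A cluster is a stretch of RNA to which the authors assigned conversion events, each of them a count. Clusters were chosen by the gene symbol of their line and counted once per replicate. This gave 15 of 1675 clusters in replicate 1 and 15 of 2183 in replicate 2, or 30 of 3858 in all.

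7SK RNA holds the elongation kinase P-TEFb in an inactive particle together with HEXIM1, LARP7 and MEPCE. The RPPH1 RNA is the catalytic subunit of RNase P, which removes the 5′ leaders of tRNA precursors, and the RMRP RNA belongs to RNase MRP, which acts in the processing of ribosomal RNA precursors and shares most of its proteins with RNase P. All 3 RNAs are made by RNA polymerase III from promoters that lie outside the transcribed region. TRMT10A is a methyltransferase that modifies guanosine in tRNAs.

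The study used HEK293T, an established human embryonic kidney cell line. Besides the 2 CLIP replicates of TRMT10A it holds 1 m6A immunoprecipitation library and 1 input library from cells with a TRMT10A knockdown, and 1 of each from cells with a control knockdown. The siRNA field of the CLIP samples reads TRMT10A and does not say whether anything was knocked down in them. No control immunoprecipitation was analysed here, so events count conversions in the CLIP libraries and do not give the enrichment of an RNA. More RNA per cell, more contact per RNA molecule and more conversions per contact cannot be told apart. Nothing in the labels says that the replicates came from separate cultures. The tables summed to 342690 events in replicate 1 and 496030 in replicate 2, and every listed cluster had at least 2 events and 10 bases. A site that is not listed may therefore hold events below the authors' limit.

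The stretches that carried most events are shown first, since the results below turn on them. They are written 5′ to 3′ as DNA from the GENCODE release 29 transcripts of GRCh38, and positions are counted from 1 at the annotated 5′ end. Capitals mark bases that lay in clusters of both replicates, and lower case marks bases covered in 1 replicate only. Clusters of either replicate that overlapped were joined into 1 site. Each RNA is a single exon in the annotation, and the authors' tables mark all 30 clusters as UTR, a label that has no coding meaning for these RNAs. On RN7SK (chromosome 6, plus strand, 328 bases) these are a site covered in replicate 1 alone (chr6:52995677-52995687), the site with the most events (chr6:52995695-52995759) and the 3′ end (chr6:52995917-52995948).
RN7SK 57 to 67: tcggctgatct
RN7SK 75 to 139: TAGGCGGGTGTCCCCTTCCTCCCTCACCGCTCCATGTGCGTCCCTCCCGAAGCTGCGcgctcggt
RN7SK 297 to 328: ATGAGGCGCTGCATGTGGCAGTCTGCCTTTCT
On RPPH1 (chromosome 14, minus strand, 333 bases) they are 2 neighbouring sites toward the 5′ end (chr14:20343350-20343386 and chr14:20343246-20343341), 1 site past the middle (chr14:20343171-20343197) and the 3′ end (chr14:20343075-20343090).
RPPH1 22 to 58: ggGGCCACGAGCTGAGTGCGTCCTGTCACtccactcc
RPPH1 67 to 162: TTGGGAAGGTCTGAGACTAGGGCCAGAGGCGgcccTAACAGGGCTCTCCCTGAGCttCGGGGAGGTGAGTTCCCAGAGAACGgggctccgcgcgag
RPPH1 211 to 237: ccGGCGGATGCCTCCTTTGCCGGAGCT
RPPH1 318 to 333: aCTACTCTCCTCCGCC
On RMRP (chromosome 9, minus strand, 268 bases) they are a site toward the 5′ end (chr9:35657910-35657981) and the long 3′ site (chr9:35657751-35657849).
RMRP 38 to 109: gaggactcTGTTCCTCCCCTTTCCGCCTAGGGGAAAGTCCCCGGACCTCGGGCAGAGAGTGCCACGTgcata
RMRP 170 to 268: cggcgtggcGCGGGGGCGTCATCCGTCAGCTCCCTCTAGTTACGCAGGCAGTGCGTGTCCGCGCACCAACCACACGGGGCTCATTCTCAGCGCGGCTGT

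RPPH1 had the highest level of the 3 RNAs in both replicates, RN7SK came next and RMRP was lowest. RPPH1 held 866 events in replicate 1 and 1099 in replicate 2, which is 0.253% of all events (95% Wilson interval 0.236 to 0.270%) and 0.222% (0.209 to 0.235%). RN7SK held 726 and 791 events, or 0.212% (0.197 to 0.228%) and 0.159% (0.149 to 0.171%). Both shares were lower in replicate 2. The intervals of the replicates did not overlap for RN7SK, and for RPPH1 they were apart only narrowly (lower bound 0.2364% in replicate 1, upper bound 0.2350% in replicate 2). RMRP held 413 and 588 events, or 0.121% (0.109 to 0.133%) and 0.119% (0.109 to 0.129%), with overlapping intervals. These intervals take in counting error alone and treat each event as independent. Several reads can stem from 1 molecule, so the counting error may be wider than the intervals.

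Per length, the order was the same. RPPH1 had 7589 and 6653 events per kilobase of RNA per 1000000 events, 7121 ± 661 (SD, n = 2). RN7SK had 6459 and 4862, 5660 ± 1129 (SD, n = 2). RMRP had 4497 and 4423, 4460 ± 52.1 (SD, n = 2). The replicate values of the 3 RNAs did not overlap, but the steps between neighbouring means were close in size to the SD of RN7SK. With 2 replicates no permutation test can pass 0.05, and none was run. The order holds for the RN7SK locus alone: with the events listed on 7SK copies, described below, its level came to 11379 and its share of all events to 0.373%, above RPPH1.

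**Figure D1:**
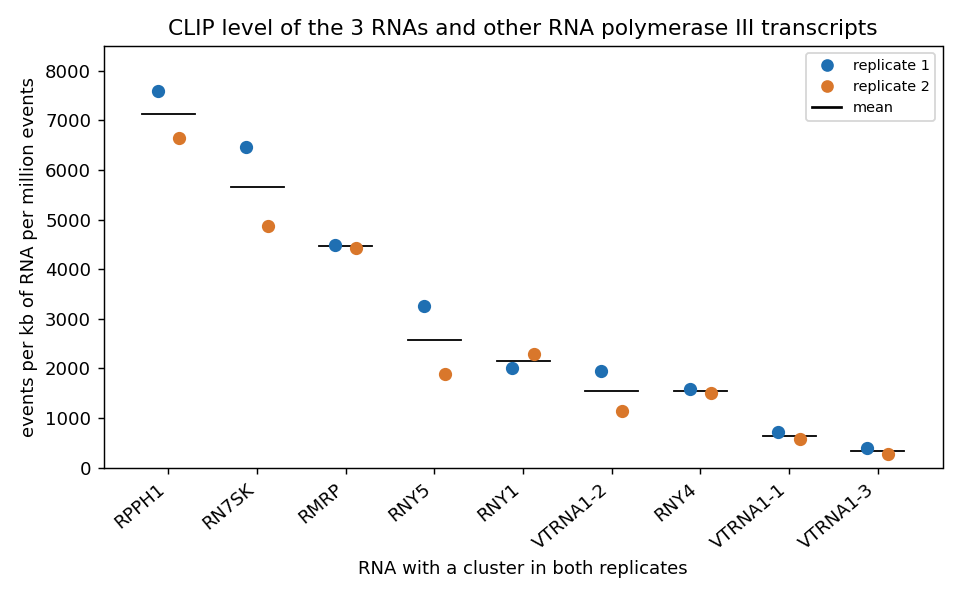
Level of each RNA in events per kilobase of RNA per 1000000 events, on a linear axis from 0, with 1 point per CLIP replicate and a line at the mean. Lengths are from GENCODE for RPPH1, RN7SK and RMRP and from RefSeq for the others. The others are the Y and vault RNA genes with a cluster in both replicates. RPPH1, RN7SK and RMRP, which were chosen with their clusters known, lie above every other RNA shown in both replicates.

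Among the 501 genes listed in both replicates, RPPH1 ranked 44, RN7SK 48 and RMRP 54 by events. Among 130 small noncoding genes with 1 line in each table, they ranked 5, 8 and 9 by events per kilobase of RefSeq length. The genes nearest in level were looked for among these 130, by the summed absolute log2 difference over both replicates. RN7SK (6381 and 4803 per kilobase of RefSeq length, scaled in the same way) lay closest to the U3 small nucleolar RNA gene SNORD3A (6589 and 5825, summed difference 0.32) and to RNU5A-1, a U5 small nuclear RNA gene (5861 and 6548, 0.57). RPPH1 (7411 and 6497) lay closest to RNU5B-1 (8555 and 6720, 0.26) and SNORD3A (0.33). RMRP (4464 and 4390) had no neighbour as close, with RNU7-1, the U7 small nuclear RNA gene, at 0.67 (3242 and 3808) and RNU5A-1 at 0.97.

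A set of other RNAs made by RNA polymerase III was looked up beside them. It was limited to genes of U6, U6atac, Y and vault RNAs and does not stand for all transcripts of this polymerase. The 3 RNAs were chosen with their clusters known, so the number of these genes listed is not compared with them. Of 14 such genes, 6 had clusters in replicate 1, 12 in replicate 2 and 6 in both. The Y RNAs, which bind the Ro60 protein, differed among themselves, with RNY5 at 3265 and 1896 events per kilobase on the same scale and RNY1 at 2014 and 2284, RNY4 at 1581 and 1512, and RNY3 listed only in replicate 2, with 4 events. Of the vault RNAs, VTRNA1-2 had 1956 and 1145 events per kilobase on this scale, VTRNA1-1 had 715 and 576, and VTRNA1-3 had 398 and 275. The 5 U6 genes shared a single cluster of 2 events in replicate 2, and RNU6ATAC and VTRNA2-1 were not listed.

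Most events on each RNA lay in a few clusters, some of them long, and the positions of events within a cluster are not given. On RPPH1 and RMRP every site was covered in both replicates, while on RN7SK some sites were covered in 1 replicate only. Clusters of either replicate formed 15 sites, of which 12 were covered in both. In 9 of these both replicates had at least 20 events, and their ratio of replicate 2 to replicate 1, on events scaled to 1000000 per replicate, ran from 0.520 to 1.53. For the clusters themselves, 13 of 15 in replicate 1 shared at least 1 base with a cluster of replicate 2, beside 71.4% of all clusters of replicate 1. In the other direction 14 of 15 recurred, beside 56.3% of all clusters of replicate 2. The members carry more events than most clusters, and among clusters with at least 20 events the background was higher: 9 of 11 recurred beside 94.5% in replicate 1, and 9 of 9 beside 95% in replicate 2. Both exceptions were on RN7SK, and at this strength the recurrence of the 3 RNAs did not stand above the background.

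**Figure D2:**
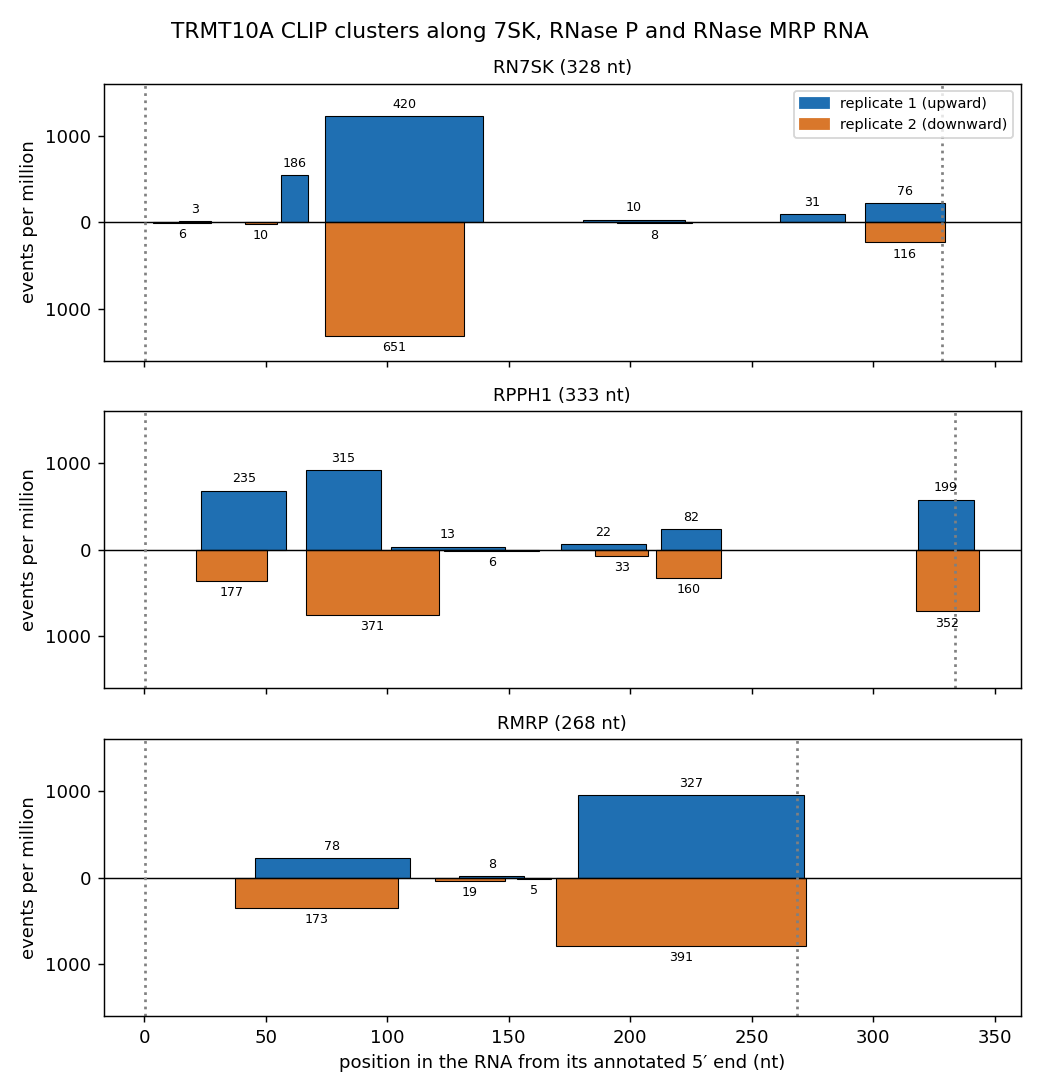
Clusters along RN7SK, RPPH1 and RMRP, with position from the annotated 5′ end on the horizontal axis and events of the whole cluster per 1000000 events of the replicate on the vertical axis, replicate 1 upward and replicate 2 downward. Numbers are events, dotted lines are the annotated ends, and the strongest stretches face each other across the axis except RN7SK 57 to 67, which only replicate 1 holds.

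RN7SK had 1 dominant stretch. The site at 75 to 139 held 420 events in replicate 1 (bases 75 to 139) and 651 in replicate 2 (bases 75 to 131), or 57.9% and 82.3% of the events on the RNA. Its scaled level (events per 1000000) was 1226 and 1312, a ratio of 1.07, and both clusters began at the same base. The 3′ site at 297 to 329 was identical in extent in both replicates, with 76 and 116 events (222 and 234 scaled events). The middle of the RNA was thinly covered: the site at 181 to 225 had 10 and 8 events, and no cluster touched bases 140 to 180 or 226 to 261. At the 5′ end a small site at 4 to 27 had 3 and 6 events.

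The 3 sites found in 1 replicate only were all on RN7SK. Bases 57 to 67 held 186 events in replicate 1, 25.6% of the RNA's events there, and no cluster in replicate 2. Bases 262 to 288 held 31 events in replicate 1 alone and bases 42 to 54 held 10 in replicate 2 alone. Among clusters of replicate 1 with at least 186 events, 4 of 273 did not recur, this one and 3 on 18S or 28S ribosomal RNA. In replicate 2 the same limit left 6 of 328, all on 18S or 28S ribosomal RNA. Ribosomal RNA genes held most events, with 24.0% of all events outside them in replicate 1 and 24.2% in replicate 2. How many of the 273 and 328 clusters lay on ribosomal RNA was not counted. Outside bases 57 to 67, RN7SK held 540 and 791 events, or 0.158% and 0.159% of all events, so that the replicates came to nearly the same share there. This split was chosen after the values were seen.

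RPPH1 had 5 sites, all with at least 20 events in both replicates. The site at 67 to 162 led with 328 events in replicate 1 and 377 in replicate 2, most of them in the clusters at 67 to 97 (315) and 67 to 121 (371). The site at 22 to 58 held 235 and 177 events. Scaled to 1000000 events per replicate it went from 686 to 357, a ratio of 0.520 and the lowest of the 9 sites with at least 20 events in both replicates. The sites toward the 3′ end went the other way, with 82 and 160 events at 211 to 237 (scaled ratio 1.35) and 199 and 352 at 318 to 343 (ratio 1.22). The site at 172 to 207 had the fewest, with 22 and 33 events. The stretch from 238 to 317, 80 bases long, held no cluster in either replicate and was the longest gap on the 3 RNAs.

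RMRP carried most of its events at the 3′ end. The site at 170 to 272 held 327 events in replicate 1 and 391 in replicate 2, or 79.2% and 66.5% of the RNA's events. The site at 38 to 109 held 78 and 173 events, and its scaled ratio of 1.53 was the highest of those 9 sites. Between them lay a weak site at 120 to 167 with 8 events in 1 cluster and 24 in 2 clusters. The first 37 bases were not covered.

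**Figure D3:**
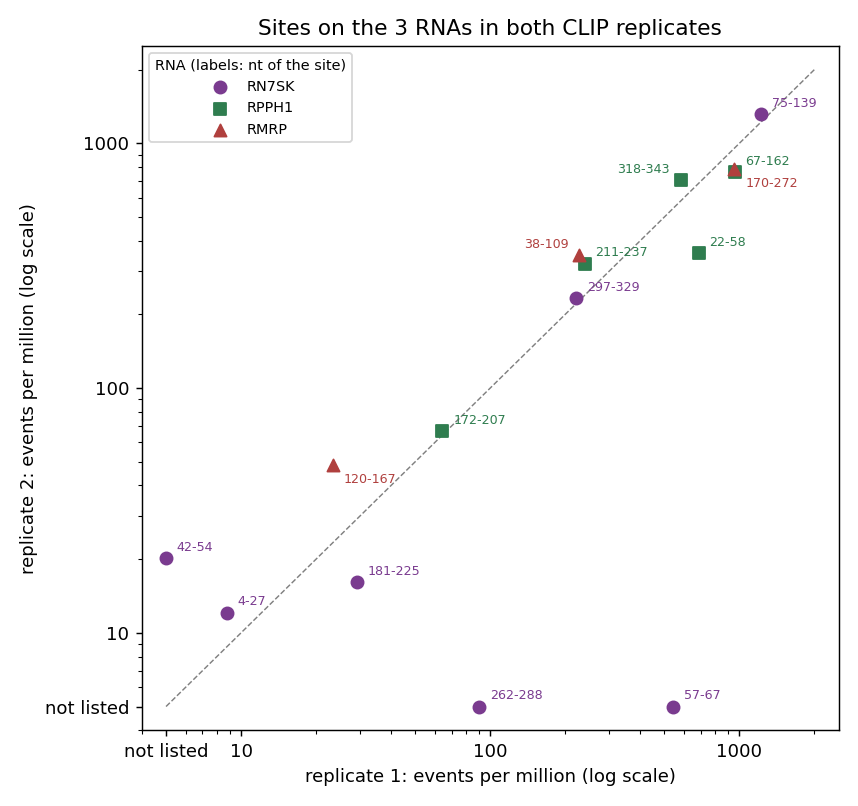
Events per 1000000 at each of the 15 sites in replicate 1 (horizontal) and replicate 2 (vertical), both on log scales, with the site's first and last base beside each point and sites without a cluster set at "not listed". Of the 9 sites with at least 20 events in both replicates, 7 lie within 1.5 times of the dashed line of equal level, RPPH1 22 to 58 lies below it and RMRP 38 to 109 above it, and RN7SK 57 to 67 has no counterpart in replicate 2.

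Each RNA was divided into 3 parts of equal length, with a cluster counted at its midpoint, and by this midpoint rule the middle part held the fewest events on all 3 RNAs. It held 1.38% and 1.01% of the events on RN7SK, 4.04% and 3.55% of those on RPPH1, and 1.94% and 4.08% of those on RMRP. RN7SK had 83.9% (95% Wilson interval 81.0 to 86.4%) and 84.3% (81.6 to 86.7%) in its 5′ part. Its dominant clusters cross the border of that part, and with events spread evenly over each cluster the mean fell from 84.1% to 54.9%, and its middle part came to 30.3%, above the 14.8% of its 3′ part. Spread in this way, the mean share of the middle part was 11.8% on RPPH1 and 13.1% on RMRP, so that how sparse the middle appears depends on the midpoint rule. RPPH1 had 63.5% (60.3 to 66.7%) and 49.9% (46.9 to 52.8%) in its 5′ part and 32.4% and 46.6% in its 3′ part. RMRP had its largest share in the 3′ part, with 79.2% (75.0 to 82.8%) and 66.5% (62.6 to 70.2%).

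A cluster at the very 3′ end was shared by all 3 RNAs and both replicates. These clusters ran past the GENCODE end by 1 base on RN7SK in both replicates, by 8 and 10 bases on RPPH1 and by 3 and 4 bases on RMRP. RefSeq places the ends further out, and past those RN7SK had 0 bases, RPPH1 4 and 6, and RMRP 2 and 3. For comparison, a cluster came within 5 bases of the RefSeq end, or passed it, in 41.5% of the 130 small noncoding genes in replicate 1 and 44.6% in replicate 2. The limit of 5 bases was chosen after the values were seen.

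Over the bases of each RNA, clusters covered 190 and 157 bases of RN7SK, 188 and 188 of RPPH1 and 181 and 209 of RMRP. Of the bases covered in either replicate, both covered 59.9% on RN7SK, 77.4% on RPPH1 and 78.1% on RMRP. With the events of each cluster spread evenly over its bases, Pearson's r between the replicates was 0.53 over the 328 bases of RN7SK, 0.77 over the 333 of RPPH1 and 0.84 over the 268 of RMRP. Neighbouring bases share clusters, so these values describe the profiles and carry no test.

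Covered bases held less A than uncovered bases on all 3 RNAs, while T and predicted pairing differed in direction between the RNAs. T made up 23.5% of covered and 18.9% of uncovered bases on RN7SK, 17.0% and 16.5% on RPPH1, and 18.7% and 22.4% on RMRP. Weighted by events the T share of covered bases was higher on RN7SK (25.6%) and RPPH1 (20.1%). A made up 15.7% of covered against 27.9% of uncovered bases on RN7SK, 15.1% against 24.8% on RPPH1 and 16.4% against 22.4% on RMRP. Each of the 30 clusters held at least 3 T. In the fold of lowest free energy, predicted from the sequence without proteins, 62.2% of covered and 56.8% of uncovered bases of RN7SK were paired, 71.7% and 62.8% of RPPH1, and 58.9% and 63.3% of RMRP.

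7SK has many copies in the genome, and their clusters bear on the RN7SK values. GENCODE annotates 293 RN7SKP copies, 2 RPPH1 copies and 1 RMRP copy. No cluster lay on the copies of RPPH1 or RMRP. RN7SK copies held 17 clusters on 13 copies in replicate 1 and 17 on 13 in replicate 2, with 9 copies in common. These clusters summed to 648 events in replicate 1 and 923 in replicate 2, beside the 726 and 791 on RN7SK itself. The tables list these clusters under the host gene as an intron, except those on RN7SKP176, which are listed in the 3′ UTR of PLCG2.

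Most events on copies lay at RN7SK bases 57 to 139, where RN7SK itself had most of its events. Aligned to RN7SK, clusters overlapping its bases 57 to 139 held 98.8% of the events on copies in replicate 1 and 98.0% in replicate 2. RN7SKP9, in an intron of UBAC2, held 428 events in replicate 1 and 685 in replicate 2 at RN7SK bases 75 to 110 and 75 to 114. These were a little above the 420 and 651 of the RN7SK site itself. This 1 cluster made up 66.0% of the events on copies in replicate 1 and 74.2% in replicate 2. RN7SKP180, in an intron of SLC39A11, held 80 and 74 over the same stretch. No cluster on another copy held more than 48 events. At the RN7SK 3′ site the copies had 1 cluster, of 2 events on RN7SKP292 in replicate 1.

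**Figure D4:**
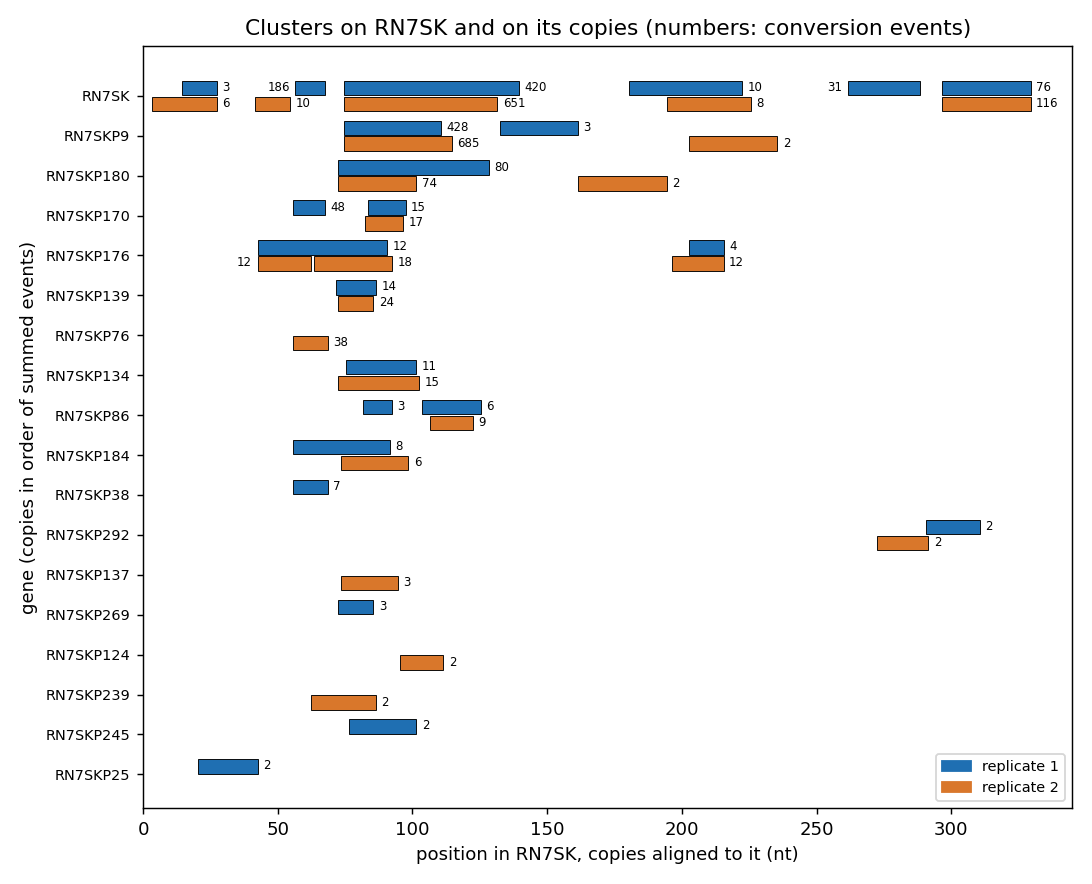
Clusters on RN7SK and on the 17 copies with a cluster in either replicate, each drawn at its aligned position in RN7SK, with its events beside it. The copies' clusters gather at RN7SK bases 57 to 139, and RN7SKP9 holds 428 and 685 events there.

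The strongest RN7SK site without a match in the other replicate had counterparts on copies. At the same aligned bases, 56 to 67 or 68, RN7SKP170 held 48 events and RN7SKP38 held 7 in replicate 1, and RN7SKP76 held 38 in replicate 2. These 3 copies differ there from RN7SK by 1 base, C58T in each, where the RN7SK base is given first, then its position, then the base of the copy. Longer clusters also reached these bases, on RN7SKP184 (56 to 91, 8 events in replicate 1, also with C58T) and on RN7SKP176, where 12 events at 43 to 90 in replicate 1 and 12 at 43 to 62 and 18 at 64 to 92 in replicate 2 lay on a copy that does not differ from RN7SK within 57 to 67. RN7SKP239 had 2 events at 63 to 86 in replicate 2. The sequences of the stretch are set below each other, with RN7SK at chr6:52995676-52995688, RN7SKP170 at chr4:15094026-15094038 and RN7SKP76 at chr16:61743408-61743420, and capitals mark a difference from RN7SK.
RN7SK 56 to 68: ttcggctgatctg
RN7SKP170: ttTggctgatctg
RN7SKP76: ttTggctgatctg
RN7SKP9 also differs by 1 base in its covered stretch, C104T, with RN7SK at chr6:52995695-52995734 and the copy at chr13:99205783-99205822.
RN7SK 75 to 114: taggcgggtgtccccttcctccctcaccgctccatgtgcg
RN7SKP9: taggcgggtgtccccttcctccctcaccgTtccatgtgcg

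Over all clusters on copies, 7 of the 12 differences from RN7SK in replicate 1 and 6 of the 9 in replicate 2 were a C in RN7SK and a T in the copy, and none was the reverse. The clusters with such a base held 597 of the 648 events on copies in replicate 1 and 836 of the 923 in replicate 2. Outside the clusters of the 17 copies, T stood at 12.6% of the RN7SK C positions, and inside them at 4.67%. The reverse, a C in the copy, stood at 3.28% of the RN7SK T positions outside the clusters and at 0 of 147 inside. Clusters may lie where a copy is most like RN7SK, so these shares do not test what the differing bases contributed. Over bases 57 to 67, 254 of the 293 copies align throughout, of which 41 equal RN7SK and 102 carry at least 1 T at an RN7SK C. Over bases 75 to 114, 195 of the 293 align throughout, of which 2 equal RN7SK and 160 carry at least 1 such T. Whether the reads of these clusters came from RN7SK or from its copies was not tested, nor was the part that the differing bases had in the counted events. RN7SK events and copy events therefore cannot be told apart here over bases 57 to 139.

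None of the proteins of the 3 particles had a cluster on its RNA. Of the 7 proteins of the 7SK particle (LARP7, MEPCE, HEXIM1, HEXIM2, CDK9, CCNT1 and CCNT2), 0 were listed in either CLIP table. Of 11 proteins of RNase P and RNase MRP, 0 were listed too. The tables named 680 genes in replicate 1 and 955 in replicate 2, so that most genes were absent.

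In the authors' deposited table of m6A peaks, RPPH1 had 1 peak and RN7SK and RMRP had no line. Taking the positions as they stand on its line, the RPPH1 peak covers bases 161 to 275 of the RefSeq transcript. That is 157 to 271 in the numbering used above. It overlaps 2 clusters of replicate 1 with 104 events and 3 clusters of replicate 2 with 199 events, among them the site at 211 to 237. It also takes in part of the stretch without clusters. The ratio of knockdown over control on its line is not reported, because gene columns and ratio column of that table are each sorted by themselves: over its 26474 steps from line to line the ratio never rose and the accession order never fell. The labels' protocols mention selection of polyadenylated RNA, and the 3 RNAs carry no poly(A) tail, so a missing line says little about m6A. All 7 messages of the 7SK proteins had peaks, 25 in all, and 7 of the 11 RNase P and MRP messages had 14, with no background share computed because the files hold no list of expressed genes.

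The motif GGACT, which the m6A table tracks as GGACU, occurs on the transcript strand at 40 to 44 in RMRP and nowhere in RN7SK or RPPH1. Of 4554 GENCODE transcripts of 268 to 333 bases that are not labelled protein-coding or nonsense-mediated decay, 23.9% hold it. In RMRP it lies in the 38 to 109 site, in bases covered in replicate 2 only.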

How the data were processed

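Conversion events are raw counts for each cluster, deposited by the authors, per the file headers. A conversion event is, in CLIP methods that use it, a base change left by crosslinking. Neither the method used nor the cluster caller is given in the sources used here. The submitters' processing notes name hg38, TopHat2 and Cuffdiff with no role. The m6A table holds log2 ratios deposited by the authors, which were not used. Only the positions of its peaks were.

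Clusters were placed on GENCODE release 29 transcripts, taking coordinates as 1-based. Overlap needed at least 1 shared base on the same strand, and the matching was tested on simulated data. Copies were aligned to RN7SK globally with Biopython 1.88 (match 2, mismatch -3, gap opening -5, extension -2). Folds came from ViennaRNA 2.7.2 and intervals (95%, Wilson) from scipy 1.17.1. The replicates form 1 group, so no test was made. The members and lists were chosen with earlier results of these data known. Genes were named by rule: the 3 RNAs, particle proteins, RNA polymerase III transcripts, copies and the 2 nearest levels. For nearest levels, genes with several lines were left out, since 1 length does not serve them.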

Additional observations from a re-analysis of the deposited data

How the results depend on the processing

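With events outside ribosomal RNA genes as denominator, the shares became 0.772% for RN7SK, 0.985% for RPPH1 and 0.496% for RMRP. With copies added, a setting chosen after seeing the data for the level, RN7SK came to 0.373% of events and a scaled level of 11379 per kilobase. With covered length in place of annotated length, scaled levels per kilobase were 8556 for RN7SK, 11185 for RPPH1 and 5458 for RMRP, in the same order. Spreading events over each cluster moved the share in the 5′ part of RN7SK from 84.1% to 54.9%, and the middle part from 1.19% to 30.3% on RN7SK, from 3.80% to 11.8% on RPPH1 and from 3.01% to 13.1% on RMRP. Weighting by events moved the T share to 25.6% on RN7SK and 20.1% on RPPH1. In single replicates the T share ran from 23.6 to 24.2% on RN7SK, 16.5 to 18.6% on RPPH1 and 18.8 to 19.1% on RMRP, and ranks by events from 48 to 49, 44 to 45 and 54 to 55. Ranks per kilobase were 8, 5 and 9, over fewer genes. Recurring clusters stayed within 1.5 times of 13 and 14 under every overlap rule tried and with at least 5 events. No paired analysis was possible because the CLIP samples form 1 group and the other groups hold 1 library of each kind. What limits precision is 2 replicates, few events per weak site and the copies of 7SK.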
